A study of Homo sapiens with 8 samples.

Results

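*KCTD12*, *TFCP2*, *POGLUT3* and *LCP1* are 4 genes of separate pathways that stood among the largest differences between LNCaP clones over-expressing *HIST1H1A* and clones carrying the control vector. They were chosen by the size of that difference on these same arrays, so their own levels and differences are given as a description without a test. Each is read by 1 transcript cluster, a set of probes summarized to 1 value, which makes 4 of the 4072 genes that could be named among the 16377 clusters of the table. The clusters are 16779839 (*KCTD12*, chromosome 13), 16764683 (*TFCP2*, chromosome 12), 16744125 (*POGLUT3*, chromosome 11, formerly *KDELC2*) and 16778849 (*LCP1*, chromosome 13). The measured list genes and neighbours below all lie on chromosome 1 or on chromosomes 10 to 14. Ranks given below hold among the named genes or the clusters of the table and are not ranks over the whole genome. The paper reports a larger rise than that of *TFCP2* for *SNAI2* and a larger fall than that of *LCP1* for *ESRP2*. Neither gene is in the ranks of named genes here.

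LNCaP is an androgen receptor-positive human prostate tumor cell line. Total RNA of 4 clonal isolates with the control vector (clones 3, 4, 8 and 9) and of 4 clonal isolates stably over-expressing the linker histone gene *HIST1H1A* (clones 2, 8, 9 and 10) was hybridized to 8 Affymetrix arrays of the Human Gene ST type, 1 per clone. Per the study's methods, both vectors were delivered by lentivirus and all transduced LNCaP cells, those of the control vector included, went through selection with blasticidin before clones were isolated. Each isolate is 1 clone, so that the spread within a group holds the differences between clones as well as those of measurement, and these cannot be told apart. The over-expressed gene itself was not analysed here.

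KCTD12 is an auxiliary subunit of the GABA-B receptor, the G protein-coupled receptor for the transmitter GABA, and it shapes how quickly the receptor's signal fades. TFCP2 is a DNA-binding protein of the CP2 branch of the grainyhead family, first known as an activator of globin genes. POGLUT3 resides in the endoplasmic reticulum and attaches glucose to serines in the epidermal growth factor-like repeats of secreted and membrane proteins, the Notch receptors among them. LCP1, or L-plastin, bundles actin filaments in leukocytes and is also made by many epithelial tumor cells, prostate cancer lines included.

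The stretches of 250 bases before the annotated start of each gene are shown because the 3 genes that were higher and the gene that was lower in *HIST1H1A* clones differ in base composition there. They are RefSeq sequences of GRCh38.p14, all from the minus strand and written 5′ to 3′ from chr13:76886406-76886655 (*KCTD12*), chr12:51173136-51173385 (*TFCP2*), chr11:108498385-108498634 (*POGLUT3*) and chr13:46182178-46182427 (*LCP1*). Capitals mark exact matches, on either strand, to GGGCGG (the GC box), TATAAA (the TATA box), CCAAT and TGACGTCA (the cyclic AMP response element), with no match of one motif overlapping a match of another.
KCTD12: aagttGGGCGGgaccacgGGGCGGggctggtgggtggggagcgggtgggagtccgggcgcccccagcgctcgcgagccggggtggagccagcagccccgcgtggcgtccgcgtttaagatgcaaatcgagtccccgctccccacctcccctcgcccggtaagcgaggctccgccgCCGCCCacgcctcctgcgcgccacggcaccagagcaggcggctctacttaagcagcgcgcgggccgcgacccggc
TFCP2: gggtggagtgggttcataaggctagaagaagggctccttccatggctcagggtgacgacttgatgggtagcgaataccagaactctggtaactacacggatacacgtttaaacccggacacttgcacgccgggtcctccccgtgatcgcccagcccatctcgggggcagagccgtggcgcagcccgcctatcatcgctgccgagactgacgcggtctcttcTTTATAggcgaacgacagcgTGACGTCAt
POGLUT3: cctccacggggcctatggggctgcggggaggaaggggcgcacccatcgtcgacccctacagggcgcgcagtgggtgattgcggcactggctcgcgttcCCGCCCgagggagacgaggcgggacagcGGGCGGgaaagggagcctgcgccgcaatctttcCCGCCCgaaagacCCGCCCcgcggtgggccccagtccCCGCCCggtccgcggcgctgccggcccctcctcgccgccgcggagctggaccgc
LCP1: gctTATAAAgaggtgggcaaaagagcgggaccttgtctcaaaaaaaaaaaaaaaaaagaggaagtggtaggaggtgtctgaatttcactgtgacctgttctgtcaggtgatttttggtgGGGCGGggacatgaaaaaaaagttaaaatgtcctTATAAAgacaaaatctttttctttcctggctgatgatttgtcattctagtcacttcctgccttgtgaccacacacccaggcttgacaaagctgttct

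The *KCTD12* and *POGLUT3* stretches each held 34 CG dinucleotides, more than 93.2% of promoters in the table, at a GC content of 75.6% and 76.4%. The *TFCP2* stretch held 21 CG dinucleotides (GC content 58.8%), more than 69.8% of promoters. The *LCP1* stretch held 2 (GC content 41.2%), more than 14.7% of promoters. GGGCGG was matched 3 times before *KCTD12*, 5 times before *POGLUT3*, once before *LCP1* and not before *TFCP2*, and 42.6% of all 35116 promoters hold it. TATAAA occurred once before *TFCP2*, read on the opposite strand, and at 2 places before *LCP1* (10.7% of all promoters hold it). TGACGTCA, held by 1.65% of promoters, was found before *TFCP2* alone among the 4. CCAAT, held by 32.0%, was found in none of the 4 stretches. A match is a description of the letters and does not show that a factor binds.

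Over all genes with a promoter in the table, the median number of CG dinucleotides was 17 in 3065 genes (quartiles 6 and 25). It was 21 (quartiles 14 and 29) in the other 280 genes that rose in *HIST1H1A* clones, 19 (quartiles 9 and 28) in the other 121 that fell, and 17 (quartiles 5 and 25) in the 2660 that did not pass. *KCTD12* and *POGLUT3* therefore lay above the upper quartile of the genes that rose, and *TFCP2*, with 21, lay at their median. *LCP1* lay below the lower quartile of the genes that fell, whose median was above that of the genes that did not pass. No test was run on this difference, and the quartile ranges of the 3 sets overlap.

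**Figure D1:**
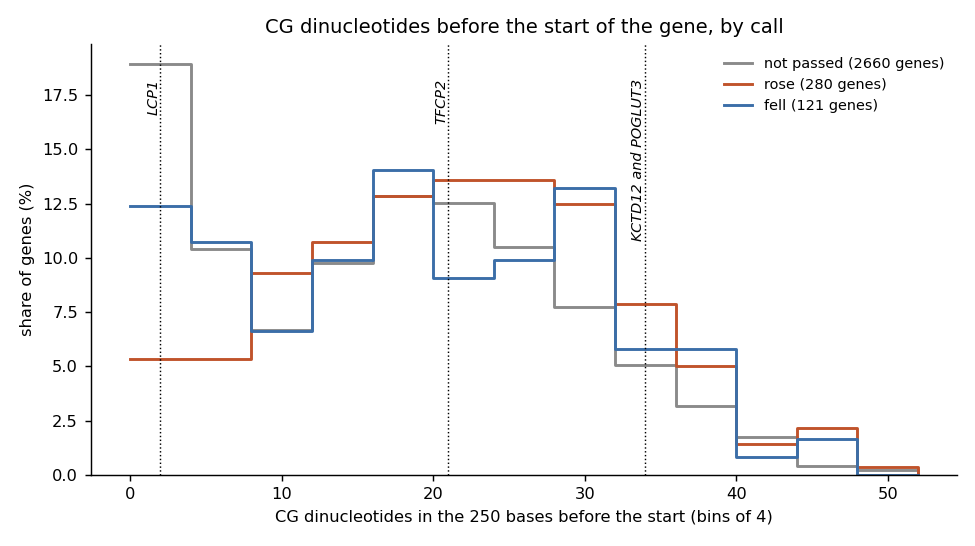
Share of genes (y axis, %) by the number of CG dinucleotides in the 250 bases before the start (x axis, bins of 4), for genes that rose (orange), fell (blue) or did not pass (grey), the 4 genes left out. Dotted lines mark *LCP1* at 2, *TFCP2* at 21, and *KCTD12* and *POGLUT3* at 34.

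*KCTD12* had a log2 signal of 4.25, 4.07, 5.54 and 4.54 in control clones 3, 4, 8 and 9, and of 10.01, 8.22, 8.56 and 9.19 in *HIST1H1A* clones 2, 8, 9 and 10. Control clone 8 was the highest of its group and *HIST1H1A* clone 8 the lowest of its own, and the groups were still separated by 2.68 on the log2 scale. The means were 4.60 ± 0.66 (SD, n = 4) and 9.00 ± 0.79 (SD, n = 4), a log2 difference of 4.39 (standard error 0.44), or 21.0-fold higher. Between these clones *KCTD12* varied more than most of the array: its SD exceeded that of 88.58% of clusters in control clones and of 97.78% in *HIST1H1A* clones. Only 3 named genes had a larger rise, the nearest of them the calcium channel-like gene *CACHD1* with a log2 difference of 4.49. The next smaller among named genes was that of the non-coding RNA *LINC02381* at 3.97. Over all 16377 clusters, most of which have no symbol here, 4 had a larger rise.

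*TFCP2* had a log2 signal of 2.96, 3.65, 3.58 and 2.74 in control clones 3, 4, 8 and 9, and of 7.81, 6.35, 6.98 and 7.15 in *HIST1H1A* clones 2, 8, 9 and 10. The control mean of 3.23 ± 0.45 (SD, n = 4) lay below 3.27, the median of all signals, so the fold change of this transcription factor rests on low signals in control clones, for which no background level was used here. In *HIST1H1A* clones the mean was 7.07 ± 0.60 (SD, n = 4), a log2 difference of 3.84 (standard error 0.33), or 14.3-fold higher. The lowest *HIST1H1A* clone stood 2.70 above the highest control clone. The rise of 5 named genes was larger than that of *TFCP2*, and the next smaller among them was that of the WNT receptor gene *FZD8* at 3.81. Over all 16377 clusters, 7 had a larger rise.

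*POGLUT3* had a log2 signal of 3.83, 4.12, 3.68 and 4.28 in control clones 3, 4, 8 and 9, and of 7.91, 6.90, 7.49 and 7.99 in *HIST1H1A* clones 2, 8, 9 and 10. Of the 3 genes that were higher it was the steadiest between clones, with a range of 0.60 in control clones, where its SD exceeded that of 50.96% of clusters, and of 1.09 in *HIST1H1A* clones. The means were 3.98 ± 0.27 (SD, n = 4) and 7.57 ± 0.50 (SD, n = 4), a log2 difference of 3.59 (standard error 0.25), or 12.1-fold higher, with 2.62 between the groups. The serine protease gene *HTRA1* at 3.70 and *KIRREL1* at 3.46 were the nearest named genes on either side. Larger rises were seen in 8 named genes, and in 10 of all 16377 clusters. The differences of *POGLUT3* and *TFCP2* lay within 1 standard error of each other.

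*LCP1* went the other way. Its log2 signal was 9.12, 9.39, 9.18 and 8.06 in control clones 3, 4, 8 and 9, and 5.10, 5.20, 5.03 and 4.76 in *HIST1H1A* clones 2, 8, 9 and 10. Control clone 9 was the lowest of its group by more than 1 log2 unit, whereas the 4 *HIST1H1A* clones lay within 0.44 of each other. The means were 8.93 ± 0.59 (SD, n = 4) and 5.02 ± 0.19 (SD, n = 4), a log2 difference of -3.91 (standard error 0.28), or 15.0-fold lower, with 2.86 between the groups. Among named genes 3 fell further, the nearest of them the epithelial transcription factor gene *EHF* with a log2 difference of -5.26. The tetraspanin gene *TSPAN1* followed *LCP1* at -3.80 among named genes. Over all 16377 clusters, most of which have no symbol here, 10 fell further. In RNA from whole cultures, fewer cells that make a transcript and less of it in each cell cannot be told apart.

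**Figure D2:**
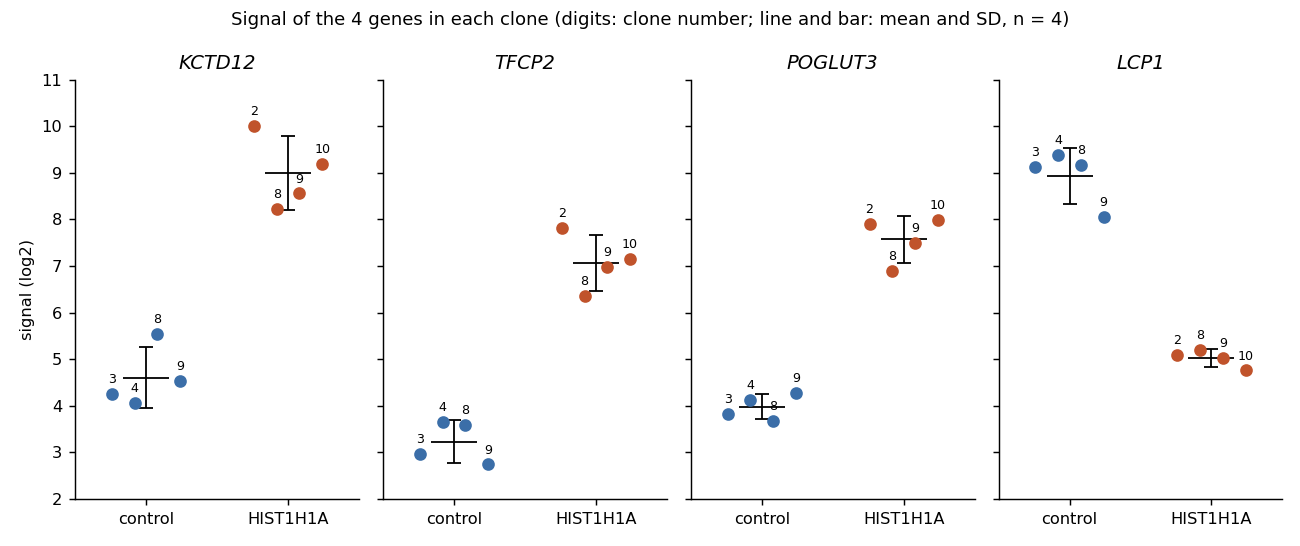
Log2 signal (y axis) of the 4 genes in each control clone (blue) and *HIST1H1A* clone (orange), with the clone number above each point and the mean and SD (n = 4) as line and bars. In each gene the groups are separated by more than the range of either group, by 2.62 in *POGLUT3* to 2.86 in *LCP1*.

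The 3 genes that were higher shared their lowest *HIST1H1A* clone. Clone 8 was the lowest of its group in all 3, at -0.77 from the group mean in *KCTD12*, -0.72 in *TFCP2* and -0.67 in *POGLUT3* on the log2 scale. Clone 2 was the highest in *KCTD12* (1.02 above the mean) and *TFCP2* (0.74), and clone 10 was the highest in *POGLUT3* (0.42, against 0.34 in clone 2). Clone 8 was also the lowest *HIST1H1A* clone in 216 of the 614 other clusters that rose (35.2%), against 26.6% of all 16377 clusters, and clone 2 was the highest in 175 of the 614 (28.5%), against 25.1% of all. *LCP1* was highest in clone 8 (0.18 above its mean) and lowest in clone 10 (-0.27). With 4 clones these orders are a description and were not tested.

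Among control clones *TFCP2* and *LCP1* shared 1 order, with clone 4 highest, then clones 8, 3 and 9, and the other two genes each had another. *KCTD12* was highest in clone 8 (0.94 above its mean), *TFCP2* in clone 4 (0.42), *POGLUT3* in clone 9 (0.30) and *LCP1* in clone 4 (0.45). In clone 9 *TFCP2* lay at -0.49 and *LCP1* at -0.87 from the group mean. The arrays themselves differed little: their median log2 signals were 3.25 to 3.30, and their mean correlation with the other arrays of their group over all clusters was 0.9428 to 0.9611 in control clones and 0.9681 to 0.9744 in *HIST1H1A* clones. The median SD of a cluster was 0.2667 in control clones and 0.2068 in *HIST1H1A* clones, the reverse of the order in the 3 genes that were higher.

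**Figure D3:**
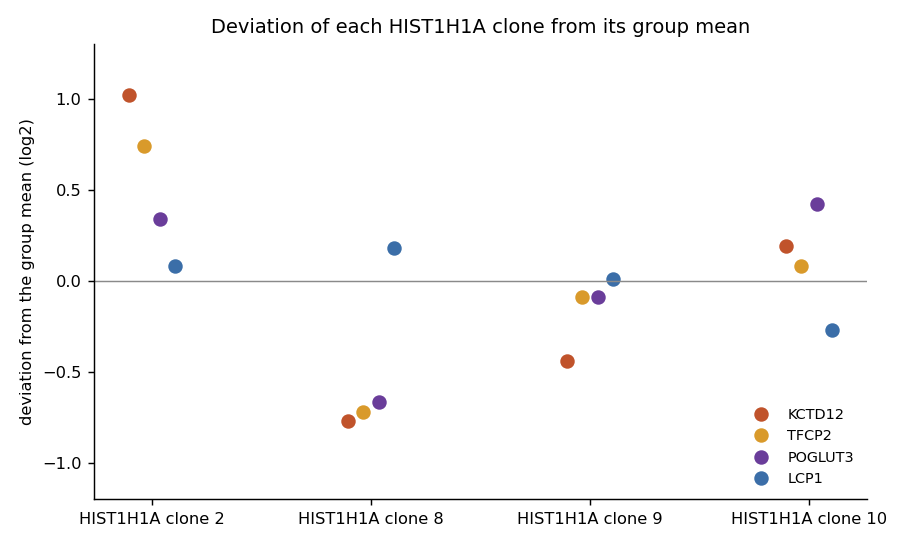
Deviation of each *HIST1H1A* clone from the mean of its group (y axis, log2) for the 4 genes, 1 point per gene and clone. Clone 8 lies between -0.77 and -0.67 in *KCTD12*, *TFCP2* and *POGLUT3*, and at 0.18 in *LCP1*.

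The genes whose profile over the 8 arrays was most like that of each gene were found by the root mean square difference in log2 signal after each gene's own mean was subtracted. *TFCP2* was nearest to *KCTD12* (0.53), followed by *CACHD1* (0.64) and *FZD8* (0.67), against a median of 2.28 over all named genes. *DZIP1*, a gene of primary cilium formation, was nearest to *TFCP2* (0.41), followed by *POGLUT3* (0.44) and *FZD8* (0.48, median 1.97). It was also nearest to *POGLUT3* (0.37), followed by the junctional adhesion gene *JAM3* (0.39) and the insulin receptor substrate gene *IRS2* (0.41, median 1.83). Nearest to *LCP1* were *TSPAN1* (0.30), *LUZP2* (0.40) and the receptor gene *ERBB3* (0.41, median 2.02). The difference between the groups makes up most of each of these profiles.

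Over all clusters tested, 617 of 16377 clusters rose in *HIST1H1A* clones and 331 fell at an adjusted p under 0.05 from limma, which is 3.77% and 2.02%. Among the 4072 named genes, each represented by its brightest cluster, 355 rose (8.72%) and 156 fell (3.83%), and their median log2 difference was 0.03. Lists of the family and pathway of each of the 4 genes were set beside these shares. A gene counts as measured, here and among the neighbours below, where its symbol is among these 4072 named genes. Other genes may be read by clusters that have no symbol here, so they were not shown to be missing from the array. In all, 48 of the listed genes were measured, of which 10 rose and 4 fell.

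Of 42 genes of the KCTD family and the GABA-B receptor complex, 7 were measured, of which 1 rose, 1 fell and 5 did not pass, with a median log2 difference of -0.19. The 4 measured paralogs did not pass: *KCTD10* differed by 0.30 (adjusted p = 0.400 from limma), *KCTD4* by -0.15 (adjusted p = 0.625), *KCTD14* by -0.19 (adjusted p = 0.487) and *KCTD21* by -0.58 (adjusted p = 0.103). When only clusters with 1 symbol were tested, *KCTD21* passed (adjusted p = 0.046 from limma). A difference of the size seen in *KCTD12* was therefore not found in any of these 4 paralogs. *KCTD4* and *KCTD14* had control means of 2.31 and 2.25 and *HIST1H1A* means of 2.16 and 2.06. These lie below 3.27, the median of all signals. *ZBTB16*, a zinc finger repressor that shares the BTB fold of this family, fell from 6.28 ± 0.72 to 4.30 ± 0.21 (SD, n = 4 each), a log2 difference of -1.99 (standard error 0.32, adjusted p = 0.00802 from limma, and up to 0.052 over the other settings). *HCN3*, which encodes a hyperpolarization-activated cation channel, rose by 0.71 on the log2 scale (standard error 0.14, adjusted p = 0.021 from limma), a call lost in 5 of 16 other settings, without control clone 4 or *HIST1H1A* clone 8, 9 or 10 among them (adjusted p up to 0.074).

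Of 25 genes of the CP2 and grainyhead factors and of their listed partners and targets, 5 were measured, of which 1 rose, 1 fell and 3 did not pass (median -0.32). The only measured paralog of *TFCP2*, the epidermal differentiation factor gene *GRHL3*, differed by -0.32 (adjusted p = 0.627 from limma). The 1 gene that rose was *TET1*, which encodes an enzyme that oxidizes methylated cytosine and whose place among partners and targets of TFCP2 is uncertain. It was at 4.45, 4.34, 4.33 and 4.34 in control clones 3, 4, 8 and 9 and at 6.54, 5.88, 6.57 and 7.06 in *HIST1H1A* clones 2, 8, 9 and 10. It rose by 2.15 on the log2 scale (standard error 0.22, adjusted p = 0.00074 from limma), the largest difference in the 4 family and pathway lists, and was lowest in *HIST1H1A* clone 8, as the 3 chosen genes were. *CCND1*, which encodes the cell cycle protein cyclin D1, fell by 0.82 on the log2 scale (1.77-fold, adjusted p = 0.0116 from limma).

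Of 55 genes of Notch O-glycosylation and Notch signaling, 15 were measured, of which 4 rose, 1 fell and 10 did not pass. Their median log2 difference was 0.45, the highest of the 4 lists, and the list mean on an array was 4.67 to 4.99 in control clones and 5.35 to 5.44 in *HIST1H1A* clones. *POGLUT2*, the closest relative of *POGLUT3* and also a protein O-glucosyltransferase, was at 3.44, 4.24, 4.46 and 4.76 in control clones 3, 4, 8 and 9 and at 5.89, 5.00, 5.35 and 5.55 in *HIST1H1A* clones 2, 8, 9 and 10. Like *POGLUT3* it did not overlap between the groups and was lowest in *HIST1H1A* clone 8. The gap of 0.24 was narrow, and the rise of 1.22 on the log2 scale (standard error 0.30, 2.33-fold) passed the threshold barely (adjusted p = 0.0497 from limma). The call was lost in 12 of 16 other settings, which include leaving out any array except that of control clone 9 (adjusted p up to 0.15).

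The receptor gene *NOTCH2*, whose product carries the repeats that such enzymes glycosylate, averaged 6.77 ± 0.48 with the control vector and 8.03 ± 0.29 with *HIST1H1A* (SD, n = 4 each). It rose 2.40-fold (adjusted p = 0.0208 from limma), again with clone 8 the lowest *HIST1H1A* clone at 7.61. This call was lost in 5 of 16 other settings, without control clone 3 or *HIST1H1A* clone 2, 9 or 10 among them (adjusted p up to 0.086). *HEYL*, a transcriptional repressor induced by Notch, rose 2.53-fold (adjusted p = 0.0238 from limma, and up to 0.096 without control clone 3 or *HIST1H1A* clone 8 or 9 and in the other settings), and here clone 8 was the highest *HIST1H1A* clone at 5.81. *DTX3*, a deltex ubiquitin ligase, rose 2.04-fold (adjusted p = 0.0333, lost in 7 settings, among them without control clone 3 or 9 or any of the *HIST1H1A* clones). *PSEN2*, a catalytic subunit of the gamma-secretase that cleaves Notch, was the 1 gene of the list that fell, by 0.71 on the log2 scale (adjusted p = 0.0496 from limma, lost in 10 settings, which include leaving out any array except that of control clone 8). *GXYLT1*, which adds xylose to O-linked glucose on Notch repeats, differed by 1.29 (standard error 0.43) but did not pass (adjusted p = 0.162 from limma), except without control clone 9 (adjusted p = 0.024).

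Of 92 plastins and other actin-binding genes, 21 were measured, of which 4 rose, 1 fell and 16 did not pass, with a median of 0.03. No other plastin was among them. The genes that rose encode proteins that build, cap or anchor actin filaments, against the direction of *LCP1*: the formin genes *FMNL3* by 1.55 (adjusted p = 0.000144 from limma) and *FMN2* by 1.52 (adjusted p = 0.000965), the supervillin gene *SVIL* by 1.28 (adjusted p = 0.00297) and the capping protein gene *EPS8* by 0.92 (adjusted p = 0.0407), all on the log2 scale. The call of *EPS8* was lost in 9 of 16 other settings, among them without control clone 3, 4 or 8 or *HIST1H1A* clone 2, 9 or 10. *FMNL3* averaged 4.73 ± 0.14 with the control vector and 6.28 ± 0.10 with *HIST1H1A* (SD, n = 4 each). *FMN2* had a control mean of 2.48, below the median of all signals. *EPS8L2*, a relative of *EPS8*, fell by 0.71 on the log2 scale (adjusted p = 0.0368 from limma), a call lost in 10 of 16 other settings, among them without control clone 4 or 8 or any of the *HIST1H1A* clones (adjusted p up to 0.11).

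**Figure D4:**
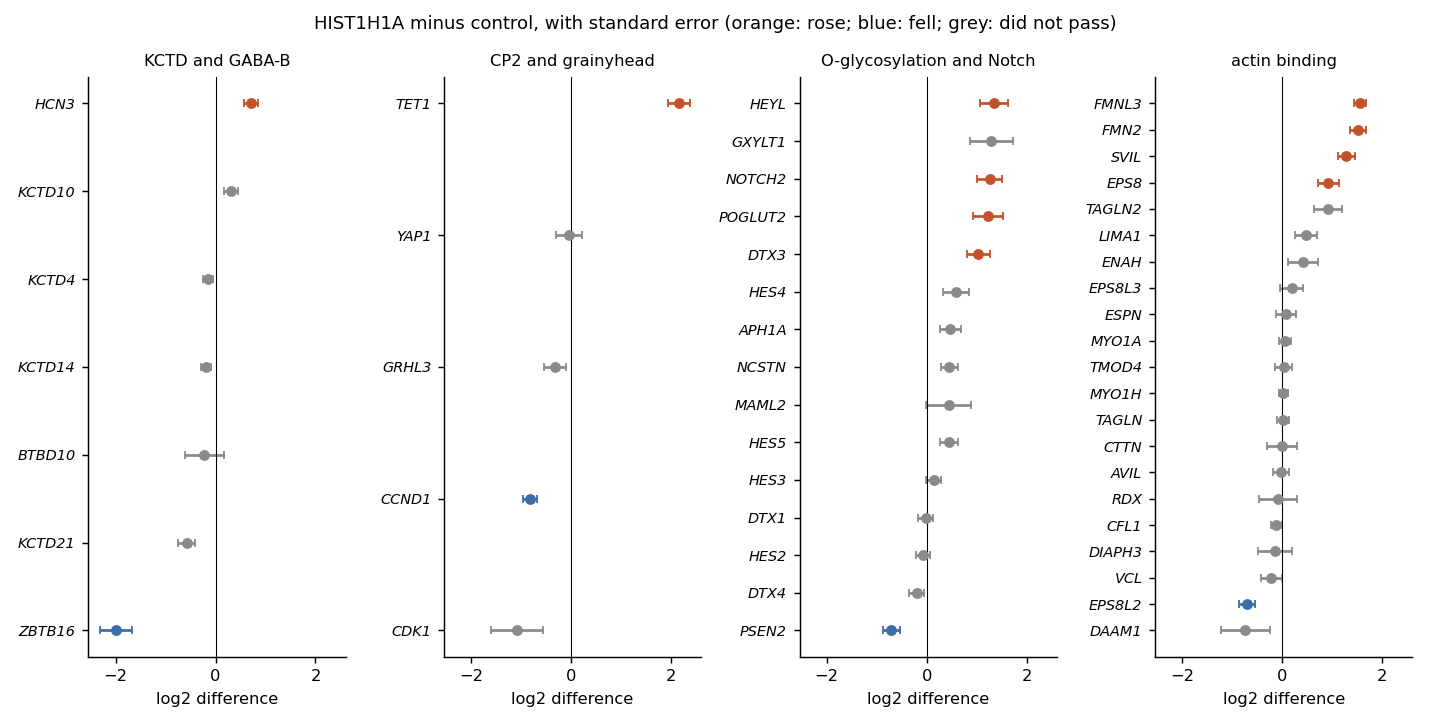
Log2 difference, *HIST1H1A* minus control (x axis), with its standard error, for the 48 measured genes of the 4 family and pathway lists, in orange where the gene rose, blue where it fell and grey where it did not pass. The 14 called genes lie between -1.99 (*ZBTB16*) and 2.15 (*TET1*).

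Since *LCP1* is best known from leukocytes, 41 leukocyte marker genes were examined. In the 19 that were measured, single signals lay between 2.01 and 5.35 on the log2 scale, and the list mean on an array was 3.29 to 3.58 in control clones and 3.33 to 3.50 in *HIST1H1A* clones, ranges that overlap. No gene of the list fell, 18 did not pass and *LAPTM5*, a lysosomal membrane protein gene, rose by 0.59 on the log2 scale (adjusted p = 0.0459 from limma). This call was lost in 11 of 16 other settings, which include leaving out any array except that of *HIST1H1A* clone 2.

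The prostate luminal genes moved with *LCP1*. All 5 that were measured fell, and the list mean on an array was 7.32 to 7.90 in control clones and 4.58 to 4.64 in *HIST1H1A* clones. *FOLH1*, which encodes prostate-specific membrane antigen, fell by 5.98 on the log2 scale (adjusted p = 9.84e-06 from limma), while *EHF* fell by 5.26 (adjusted p = 7.17e-06), and the keratin gene *KRT8* was 2.66-fold lower (adjusted p = 0.0031). *CREB3L4* and *KRT18* were 2.58-fold and 2.23-fold lower, calls lost without *HIST1H1A* clone 10 in both and without control clone 4 or *HIST1H1A* clone 8 or 9 in *KRT18* (adjusted p up to 0.066 and 0.081 over the other settings, from limma). In control clone 9, where *LCP1* was lowest, *FOLH1* (9.25) and *EHF* (9.88) were at the highest level of their group, whereas *CREB3L4* (6.79) was at the lowest of its own, *KRT18* (6.20) at the next to lowest and *KRT8* (6.33) at the third highest. The part of luminal gene levels in the difference of the 4 genes was not tested.

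Androgen-responsive genes, among which *LCP1* has been counted in prostate cells, did not share 1 direction. Of 97 listed, 9 were measured, with a median of -0.55, of which 2 rose, 2 fell and 5 did not pass. *TMEM50A* rose by 1.13 and the fatty acid desaturase gene *FADS1* by 1.08 on the log2 scale (adjusted p = 0.0103 and 0.0161 from limma, the latter up to 0.065 and lost without *HIST1H1A* clone 9 or 10). *KRT8* and *CCND1*, named above, are the 2 that fell.

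The 10 nearest measured genes of each of the 4, 5 on either side in chromosomal order, were compared next. Of these 40 neighbours, 5 rose and 2 fell, and their median log2 difference was -0.06, with a range from -1.95 to 1.24. None came near the difference of the gene it adjoins. On the 3 chromosomes as a whole the median was 0.02 over 811 genes of chromosome 11, 0.02 over 752 of chromosome 12 and -0.02 over 311 of chromosome 13, of which 8.508%, 9.043% and 9.325% rose and 4.439%, 3.324% and 4.823% fell.

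Next to *KCTD12*, *LMO7*, which encodes a LIM domain protein of cell junctions, averaged 3.15 ± 0.09 with the control vector and 4.39 ± 0.16 with *HIST1H1A* (SD, n = 4 each), a rise of 1.24 on the log2 scale (adjusted p = 0.000507 from limma). It was the 1 called gene of 10 there, and the pseudogene *BTF3P11* on the other side differed by -0.14 (adjusted p = 0.776). The region of *TFCP2* held 4 called genes of 10. *TMT1A*, a thiol methyltransferase gene, fell 3.88-fold (adjusted p = 0.00327 from limma). *GALNT6*, which starts mucin-type O-glycans, rose by 0.75 on the log2 scale (adjusted p = 0.00952), the homeobox gene *POU6F1*, the nearest on 1 side, by 0.96 (adjusted p = 0.0201) and the adhesion glycoprotein gene *SMAGP* by 1.24 (adjusted p = 0.0496). The calls of *POU6F1* and *SMAGP* were lost in 7 and 10 of 16 other settings, among them without control clone 4 or *HIST1H1A* clone 8, 9 or 10 and, for *SMAGP*, without control clone 3 or 8. *CSRNP2*, the nearest on the other side, differed by 0.03 (adjusted p = 0.960).

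Around *POGLUT3*, *ELMOD1* rose by 1.05 on the log2 scale (adjusted p = 0.0125 from limma, lost in 1 of 16 other settings at 0.053) and the other 9 did not pass. The nearest on either side, *C11orf65* and *EXPH5*, differed by 0.13 and -0.92, the latter with a standard error of 0.54. *EXPH5*, which encodes an effector of vesicle transport, was at 3.87, 3.50, 4.24 and 6.14 in control clones 3, 4, 8 and 9. Control clone 9 had the highest control signal in 7 of these 10 neighbours, among them the ubiquitin ligase scaffold gene *CUL5* at 6.89 and the actin-membrane linker gene *RDX* at 5.36, against 31.5% of all named genes. The same clone was highest in 2 of the 10 neighbours of *KCTD12*, 5 of those of *TFCP2* and 5 of those of *LCP1*, or 47.5% of all 40. *CUL5* and *RDX* were picked out after their values were seen. *POGLUT3* itself was also highest among control clones in clone 9, by a narrower margin, at 4.28.

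Around *LCP1*, 1 gene of 10 was called. *ITM2B*, which encodes a transmembrane precursor protein, was 2.19-fold lower in *HIST1H1A* clones, with means of 9.10 ± 0.28 and 7.97 ± 0.13 (SD, n = 4 each, limma's adjusted p = 0.0033). The nearest genes on either side, *CPB2* and *LRCH1*, differed by 0.02 (adjusted p = 0.967) and -0.21 (adjusted p = 0.817).

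**Figure D5:**
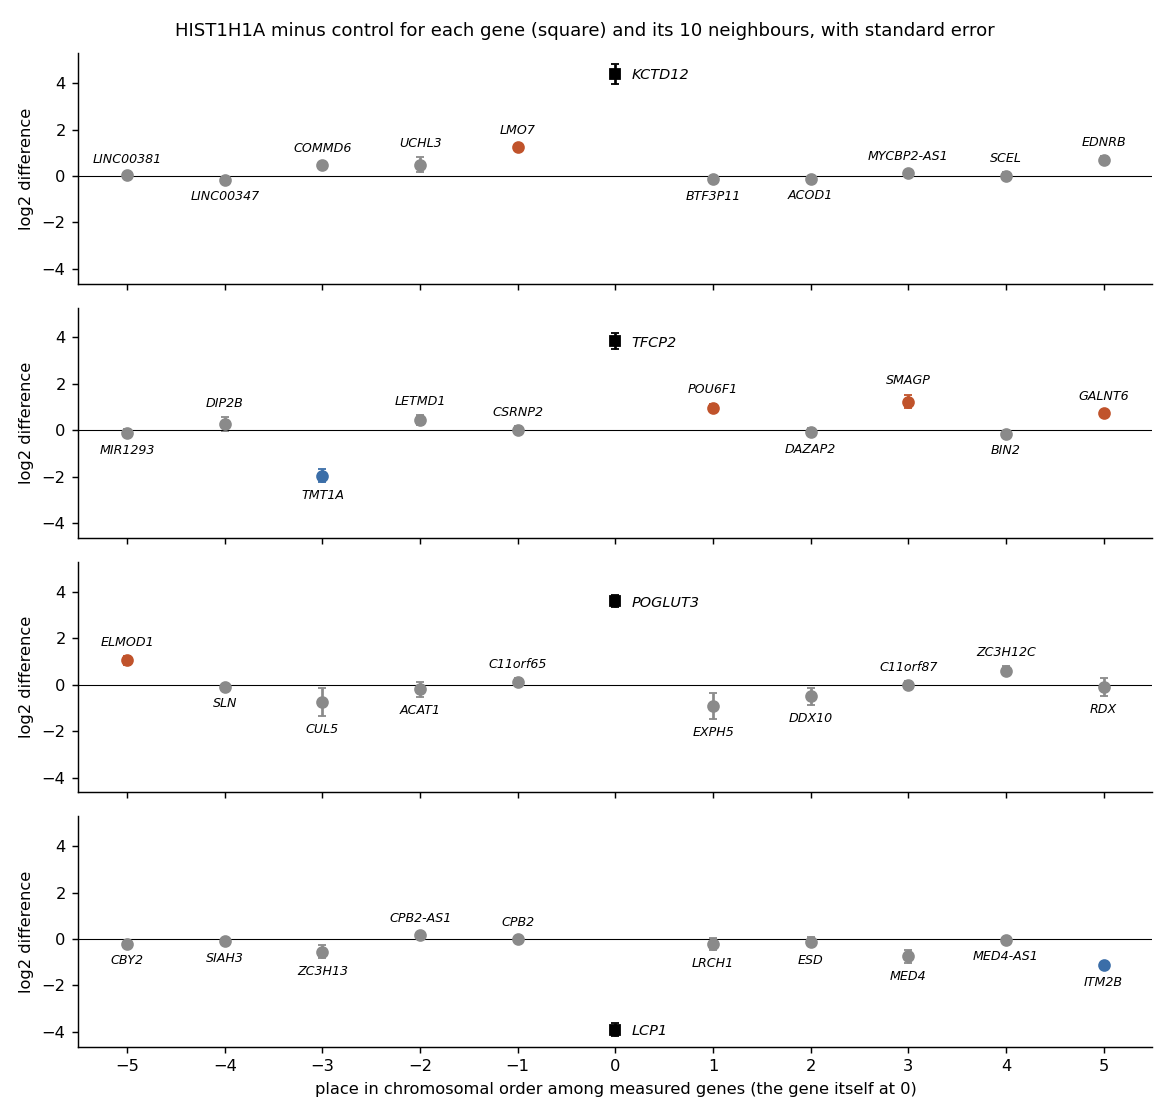
Log2 difference, *HIST1H1A* minus control (y axis), with its standard error, for each of the 4 genes (black square) and its 10 neighbours by place in chromosomal order (x axis), in orange where the neighbour rose, blue where it fell and grey where it did not pass. The 40 neighbours lie between -1.95 and 1.24, the 4 genes at 4.39, 3.84, 3.59 and -3.91.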

How the data were processed

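RNA of the 8 clones was hybridized to 1 Human Gene ST array each, and the log2 signals that the authors deposited, 1 per transcript cluster, were used as they stand. The submitters' processing notes name Partek. Its version, and how signals were summarized, background-corrected and normalized, is not given in the sources used here. Clusters were named through the platform's annotation: 4247 had 1 symbol, all with a gene identifier found in RefSeq, and 12130 had none here. Any control probe sets of the array among these were tested as well. A gene was represented by its cluster of highest mean.

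The difference between groups was fitted in R 4.3.3 with lmFit and eBayes of limma 3.58.1 over all 8 arrays, with no covariates and Benjamini-Hochberg adjustment over 16377 clusters. A cluster was called at an adjusted p under 0.05. The procedure was tested on simulated data. The 4 genes and the gene lists were chosen with earlier results of these data known, so no p-value was adjusted over a list alone and no list was tested as a set. Named are the 4 genes, every measured paralog, up to 3 rises and 3 falls a list, neighbours that passed and the nearest on each side, and the 3 likest profiles of each gene. *GXYLT1*, *DTX3*, *EPS8*, *CREB3L4*, *KRT18*, *CUL5*, *RDX*, *KIRREL1*, *HTRA1* and *LINC02381* were named outside this rule, after their values were seen. Neighbours follow the RefSeq order of genes, and promoters are RefSeq sequences of GRCh38.p14. The alternatives were trend and robust fitting in limma, an equal-variance t-test, quantile normalization, median centring, clusters above the median, clusters with 1 symbol, a fold change over 2, the mean over a gene's clusters, a block on clone number and the omission of each array in turn. Precision is limited by the number of arrays. Proteins and genomic sequence beyond the promoters were not used here.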

Additional observations from a re-analysis of the deposited data

Results flagged for a closer look

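Among 116 groups of 4 clones tested for a clone far from the others, 3 were picked out, where chance gives about 5.8. In *CACHD1*, one of the genes whose profile was nearest to *KCTD12*, control clone 9 had a log2 signal of 3.69, against 3.12 in the nearest control clone. In *TET1*, control clone 3 had a log2 signal of 4.45, against 4.34 in the nearest. In *LINC02381*, whose difference ranked next to those of *KCTD12* and *TFCP2* among named genes, control clone 3 was at 3.11, against 3.62 in the nearest. These gaps are small beside the differences between the groups (4.49 in *CACHD1*, 2.15 in *TET1* and 3.97 in *LINC02381*). None of the 8 groups of *KCTD12*, *TFCP2*, *POGLUT3* and *LCP1* was picked out.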

How the results depend on the processing

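The log2 differences of the 4 genes kept their direction in every alternative run. Leaving out each array in turn gave 4.05 to 4.71 for *KCTD12* (4.39), 3.59 to 4.08 for *TFCP2* (3.84), 3.45 to 3.82 for *POGLUT3* (3.59) and -4.20 to -3.76 for *LCP1* (-3.91). On clones 8 and 9 alone, which occur in both groups, *KCTD12* differed by 3.35, with or without a replicate block. The labels do not say whether the clone numbers pair the arrays. Over all clusters, deviations of same-numbered clones from their group means correlated at 0.07 (clone 8) and -0.217 (clone 9). Such values cannot decide whether same-numbered clones were handled together.

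Counts of calls depended on the setting. The number of changed clusters was 948 by limma, 552 by the equal-variance t-test, 618 with a fold change over 2, and 602 (without *HIST1H1A* clone 9) to 963 (without control clone 9) when each array was left out. On clones 8 and 9, limma called 75 clusters without the block and 0 with the replicate block, where 2103 had an unadjusted p under 0.05 (1999 without the block). The number of calls in the family and pathway lists was 14 by limma, 6 by the t-test, 9 with a fold change over 2, 6 to 14 when an array was left out (8 without control clone 3, 9 without control clone 4, and 8, 8, 6 and 7 without *HIST1H1A* clones 2, 8, 9 and 10), and 0 on clones 8 and 9 with or without the replicate block. Among neighbours there were 7 calls by limma, 4 by the t-test, 9 when only clusters with 1 symbol were tested, and 0 on clones 8 and 9 with or without the replicate block. The cause of these changes was not tested, beside the smaller number of arrays. Among the 40 named genes with a call, 22 kept it in each of the 16 settings on 7 or 8 arrays, 18 lost the call in 1 or more, and none changed sign.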
